A study of Mus musculus with 4 samples.

Results

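The immunity-related GTPases (IRGs) described here are Irgm1, Irgm2, Igtp, Iigp1, Ifi47, Tgtp1 and Tgtp2, 7 of the 55536 annotated genes in the tables. They were taken by symbol, and each symbol matched a single Ensembl gene. No measured value was a criterion, but the members were chosen with earlier results of these data known. The material was cytosolic RNA of macrophages, a primary cell type grown from bone marrow of C57BL/6J mice (BMDM), depleted of ribosomal RNA and sequenced as 4 libraries that the labels number as biological replicates 1 to 4. All 4 belong to 1 group: the cells had received 100 ng/ml lipid A for 12 h, had then been kept without it for 12 h after washing, and were collected 15 min after a new dose of 100 ng/ml lipid A. Lipid A anchors bacterial lipopolysaccharide in the membrane and is what Toll-like receptor 4 binds. No genetic change is named, neither sex nor age was collected, and the 4 libraries share 1 donor record. With no untreated group, these values cannot show what lipid A changed, and the p-values measure only the spread between these libraries, which may be technical. Gene counts on annotated genes ranged from 30543162 to 48146793 per library.

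IRG proteins are large GTPases whose genes are switched on by interferons in mouse cells. The effector IRGs, here Iigp1 (Irga6), Ifi47 (Irgd) and Tgtp1 and Tgtp2 (Irgb6), can load onto the vacuoles that hold intracellular pathogens such as Toxoplasma and Chlamydia and break them open. The regulatory IRGs, Irgm1, Irgm2 and Igtp (Irgm3), sit on the membranes of the cell itself and hold the effectors in their inactive, GDP-bound state. Guanylate-binding proteins (GBPs) are a related interferon-inducible family that acts on the same vacuoles, and the conjugation machinery of the ATG8 ubiquitin-like proteins is needed in mouse cells for both families to reach them.

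The sequence that separates regulators from effectors lies in the first GTP-binding motif (the P-loop), where effectors carry lysine and regulators carry methionine. The coding bases of that motif, read 5′ to 3′ from the leading transcript of each gene (GENCODE M21, mm10), are shown because they give the 2 classes at the level of the RNA measured, with the deciding codon in capitals.
Irgm1: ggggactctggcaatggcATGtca
Irgm2: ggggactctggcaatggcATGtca
Igtp: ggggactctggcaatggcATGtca
Ifi47: gggcagtctgggactggcAAGtcc
Tgtp1: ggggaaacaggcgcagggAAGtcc
Tgtp2: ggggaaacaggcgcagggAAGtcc
The 3 regulators were identical over these 24 bases, as were Tgtp1 and Tgtp2. The motif begins at codon 67 of the Irgm1 reading frame (chr11:48866761-48866784, minus strand), 71 of Irgm2 (chr11:58219695-58219718, plus strand) and 91 of Igtp (chr11:58206275-58206298, plus strand). It begins at codon 81 of Ifi47 (chr11:49095648-49095671, plus strand) and 63 of both Tgtp1 (chr11:48987667-48987690, minus strand) and Tgtp2 (chr11:49059534-49059557, minus strand). In Iigp1, where the motif begins at codon 76, the deciding codon also reads lysine. These stretches are all coding sequence within an exon.

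Whole coding sequences were less alike, apart from the Tgtp pair. Tgtp1 and Tgtp2 were 99.68% identical, with 4 of 1245 coding bases different. Among the other pairs the highest identity was 75.6%, between the regulators Irgm2 and Igtp, and the lowest was 61.38%, between Irgm2 and Iigp1.

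The upstream regions of 5 members are shown because interferon-inducible genes are known to carry the interferon-stimulated response element (ISRE), bound by STAT and IRF complexes, and the gamma-activated site (GAS). Promoter windows came from RefSeq (GRCm38.p6, the same build as mm10), 250 bases before to 50 after the start, and 6 of the 7 members had an entry. The search used GAAA-NN-GAAA for ISRE and TTCNNNGAA for GAS on both strands. Capitals mark the fixed letters of each match.
Irgm1: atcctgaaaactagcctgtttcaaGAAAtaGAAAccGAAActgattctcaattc
Irgm2: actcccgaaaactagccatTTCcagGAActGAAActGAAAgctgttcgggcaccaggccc
Igtp: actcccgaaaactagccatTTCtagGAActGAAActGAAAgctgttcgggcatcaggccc
Tgtp1: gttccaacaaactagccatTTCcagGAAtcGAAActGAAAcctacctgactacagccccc
Tgtp2: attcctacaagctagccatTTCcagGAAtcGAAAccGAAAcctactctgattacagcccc
These windows are chr11:48871421-48871474 (Irgm1, minus strand), chr11:58214883-58214942 (Irgm2, plus strand), chr11:58199492-58199551 (Igtp, plus strand), chr11:48992294-48992353 (Tgtp1, minus strand) and chr11:49064253-49064312 (Tgtp2, minus strand). ISRE letters were in 5 of the 6 members' promoters and in 3.4428% of the 32851 promoters of the table. Irgm1 held 2 such matches that share 4 bases. GAS letters were in 4 of the 6 members' promoters, against 8.2981% of all. Of the lists described below, the GBP genes had ISRE letters in 5 of 6 promoters and GAS letters in 2. The other IRG family genes had them in 3 and 2 of 6, and the interferon ligand genes in 4 and 4 of 8. For the interferon receptor, kinase and factor genes it was 1 and 4 of 14, and for the ATG8 genes 1 and 2 of 10. These promoters covered 5 of the 11 GBP genes and 6 of the 9 other IRG family genes. They covered all 8 ligand genes, 11 of the 12 receptor, kinase and factor genes and 10 of the 13 ATG8 genes. Genes without an entry were not searched. ISRE letters were thus not particular to the members.

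In Irgm2, Igtp, Tgtp1 and Tgtp2 the GAS match lay just before the ISRE match. The GAS letters read the same on both strands, so that match has no strand of its own. The joined pattern (the GAS letters, NN, then the ISRE letters), which was written after these sequences were seen, occurred in 5 of the 32851 promoters (0.0152%). Those 5 were the 4 members and Gm12185, another gene of the family, whose window (chr11:48927133-48927432, minus strand) lies apart from that of Tgtp1 although the genes overlap. Over the 60 aligned bases, 35 columns were identical in the 4 members. The Ifi47 window held neither set of letters, but it belongs to a minor start of that gene (below). For Irgm2 the RefSeq start is 58214977 and the window ends at 58215026. Its leading transcript, Irgm2-202, starts at 58215028, just past that end. A match of letters is a description of these windows and does not show binding.

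All 7 members lay far above 1 TPM (an abundance scaled to a fixed library total and corrected for transcript length) in every library, led by the regulator Irgm1 and the effector Tgtp2. Levels are from the first of 2 deposited quantifications, made from a transcriptome alignment, unless the second, made directly from the reads, is named. Coordinates below give each gene on mm10.

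Among the regulators, Irgm1, which also acts in the control of autophagy, had 205, 151, 192 and 279 TPM in replicates 1 to 4 (206.8 ± 53.3, SD, n = 4; chr11, 48861968 to 48871683). Igtp had 77.7, 49.1, 70.9 and 118 TPM (79.1 ± 29.0; 58199556 to 58207591 on the same chromosome). Irgm2, its neighbour, had 65.7, 42.2, 58.6 and 89.8 TPM (64.1 ± 19.8; 58199618 to 58222782). In all 3 regulators replicate 4 was highest and replicate 2 lowest.

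Among the effectors, Tgtp2 had 188, 109, 155 and 270 TPM (180.5 ± 67.8; chr11, 49057194 to 49064206). Iigp1, the member whose protein has been studied most as a vacuole-loading GTPase, had 111, 78.3, 103 and 172 TPM (116.1 ± 39.9; chr18, 60376027 to 60392634). Ifi47 had 98.9, 65.9, 93.1 and 131 TPM (97.1 ± 26.5; chr11, 49076587 to 49096974). The order of the libraries was the same as in the regulators, with replicate 4 highest and replicate 2 lowest.

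Tgtp1 stood apart, with 15.0, 9.74 and 12.5 TPM in replicates 1 to 3 and 48.1 TPM in replicate 4 (21.3 ± 17.97; chr11, 48985327 to 48994172). Without replicate 4 its mean was 12.4 TPM. The 3 lower libraries lay within 9.74 to 15.0 TPM, and replicate 4 was above all of them.

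**Figure D1:**
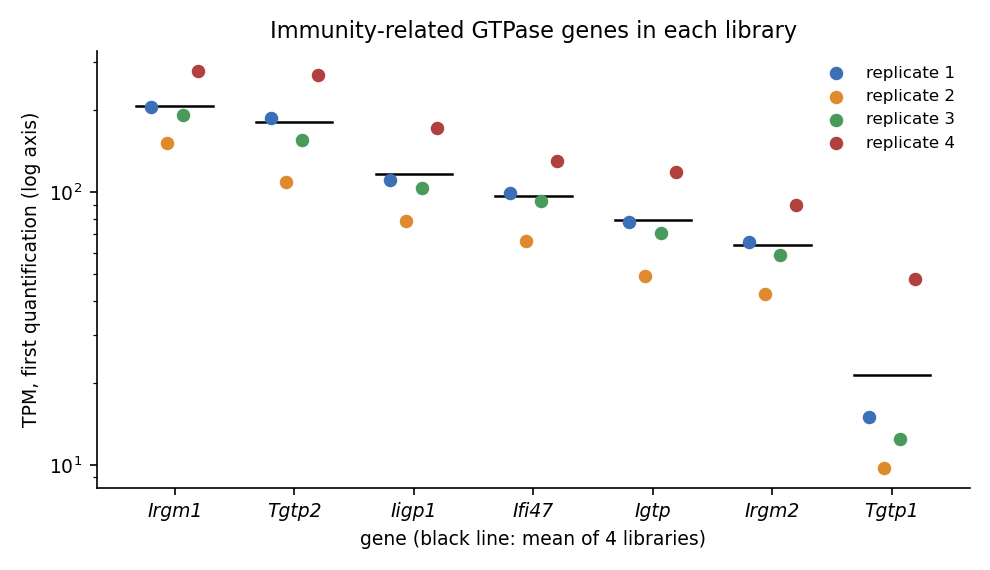
TPM of each member (first quantification, log axis) in replicates 1 to 4 (coloured points), with the mean of the 4 libraries as a black line. By this quantification replicate 4 is highest and replicate 2 lowest in all 7 genes, and Tgtp1 is the lowest gene, at 9.74 to 48.1 TPM.

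Each of the 7 members was called above 1 TPM (limma on log2(TPM + 0.1), one-sided, Benjamini-Hochberg adjusted over 16262 genes). The adjusted p ran from 1.48e-10 for Irgm1 to 5.52e-07 for Tgtp1. The same call was made for 58.2% of all genes tested and 71.2% of the 12636 protein-coding genes tested, so the call by itself sets the members apart little. Their levels did so more: the median of the members' means was 97.1 TPM, against 4.85 TPM over all protein-coding genes tested. By mean TPM the members lay between the 82.1st percentile of those genes (Tgtp1) and the 98.5th (Irgm1).

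Together the 7 genes held 761, 506, 685 and 1108 TPM in replicates 1 to 4 (765 ± 253). TPM are shares of a fixed total over all RNA classes, and scaling to protein-coding genes multiplied the values by 3.15, 3.95, 3.34 and 2.73. On that scale the sum was 2399, 1999, 2288 and 3025 (2428 ± 432.5), again highest in replicate 4 and lowest in replicate 2. By the second quantification as deposited it was 331, 222, 205 and 336 TPM, lowest in replicate 3. Scaled to protein-coding genes, the second quantification gave 2366, 1985, 2328 and 3067, lowest in replicate 2. The order of the libraries thus depended on the quantification and the scaling. Apart from the share of Tgtp1, the make-up of the sum varied less than its size. Irgm1 held 27.5% ± 1.99 of it, Tgtp2 23.3% ± 1.47, Iigp1 15.2% ± 0.459, Ifi47 12.8% ± 0.758, Igtp 10.2% ± 0.407 and Irgm2 8.41% ± 0.237. Tgtp1 held 1.98%, 1.93% and 1.82% in replicates 1 to 3 and 4.34% in replicate 4.

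Within a library the order was Irgm1, Tgtp2, Iigp1, Ifi47, Igtp, Irgm2 and Tgtp1. In each of the 21 pairs of members the difference had the same direction in all 4 libraries. With 4 libraries the exact two-sided sign-flip permutation test cannot go below p = 0.125, which every pair reached (0.125 also after adjustment over the pairs), so no pair could pass a threshold of 0.05. The closest neighbours in the order were Irgm1 over Tgtp2, by 0.24 ± 0.19 on the log2 scale (range 0.05 to 0.47), and Iigp1 over Ifi47, by 0.24 ± 0.11. Igtp exceeded Irgm2 by 0.28 ± 0.08, Ifi47 exceeded Igtp by 0.33 ± 0.13, and Tgtp2 exceeded Iigp1 by 0.62 ± 0.12. The widest step was Irgm2 over Tgtp1, by 1.84 ± 0.63. The top pair was not kept by the second quantification, where Irgm1 minus Tgtp2 was -0.15, 0.10, 0.02 and -0.23 in replicates 1 to 4 (mean -0.07). The order of Irgm1 and Tgtp2 thus differed between the quantifications.

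The libraries moved together over the family. On log2 CPM (counts scaled to library size and by TMM, which evens out library composition), the mean deviation of the 7 members from their own means was 0.05, -0.40, -0.13 and 0.48 in replicates 1 to 4, and 0.09, -0.36, -0.08 and 0.35 without Tgtp1. The median gene of at least 10 TPM deviated by 0.06, -0.08, -0.01 and 0.03. Replicate 4 was the highest library for 7 of 7 members and for 27.5% of the 4381 genes of at least 10 TPM. Replicate 2 was the lowest for 7 of 7 members and for 40.9% of those genes. The 7 members share these libraries, so their agreement is 1 observation about the libraries and not 7.

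Other features were set beside the same libraries. The GBP genes deviated by a median of -0.13, -0.37, -0.003 and 0.46 in replicates 1 to 4. All 11 were highest in replicate 4 and 7 were lowest in replicate 2. The other IRG family genes deviated by a median of -0.15, -0.23, 0.02 and 0.34. Of the 8 tested, 7 were highest in replicate 4 and 5 lowest in replicate 2. The ATG8 conjugation and vacuole-targeting genes deviated by a median of -0.04, 0.03, -0.03 and 0.02. Of these 13, 3 were highest in replicate 4 and 2 lowest in replicate 2. Single genes of that list could move more: Sqstm1 ranged from 548 CPM in replicate 3 to 909 CPM in replicate 2. The macrophage markers deviated by a median of 0.06, -0.17, -0.05 and 0.18, and of these 8, 3 were highest in replicate 4 and 4 lowest in replicate 2. Counts on the phiX control genome were 117349, 113212, 76923 and 10187. The part of cell make-up or library preparation in the members' pattern was not tested, and in bulk RNA fewer cells expressing a gene and less of its RNA per cell cannot be told apart.

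**Figure D2:**
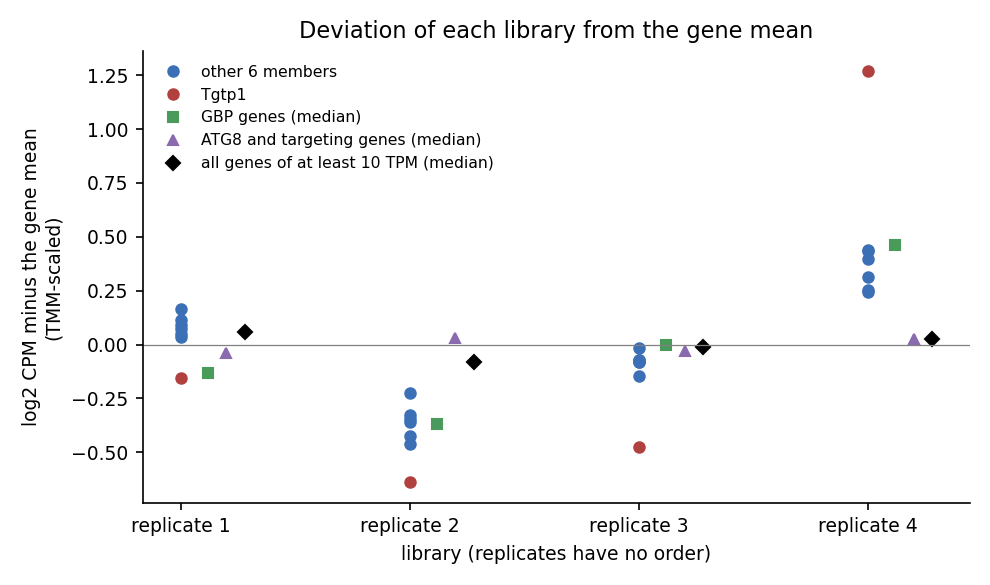
Deviation of each library from the gene's own mean (TMM-scaled log2 CPM) for Tgtp1 (red), the other 6 members (blue), and the medians of the GBP genes, of the ATG8 conjugation and targeting genes and of all genes of at least 10 TPM. In replicate 4 the 6 members lie between 0.245 and 0.441 and Tgtp1 at 1.27, while the median of all genes lies at 0.03.

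The 5 other genes of at least 10 TPM whose deviations over the 4 libraries came closest to the members' mean were Slfn9, Inpp5b, Ifi44, Ms4a4c and Acsl1. Their root mean square differences from it were 0.047, 0.050, 0.055, 0.057 and 0.064 log2 units, and their levels 28.2 ± 10.9, 11.3 ± 3.88, 111 ± 41.6, 529 ± 189 and 29.4 ± 11.7 TPM. Slfn9 is a Schlafen gene and Ifi44 an interferon-induced gene. The number of the 4374 non-member genes closer to the members' mean than a member was 0 for Igtp, 3 for Iigp1, 8 for Tgtp2, 24 for Irgm2, 66 for Ifi47, 97 for Irgm1 and 4038 for Tgtp1. That mean includes the member itself, which favours a low number. With 4 libraries, many genes share such a profile, and the likeness is a description.

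The spread between replicates, as edgeR's biological coefficient of variation (BCV), was 0.163 for Irgm1, 0.183 for Irgm2, 0.203 for Igtp, 0.194 for Iigp1, 0.167 for Ifi47 and 0.222 for Tgtp2. For Tgtp1 it was 0.425, higher than in 98.6% of genes of at least 10 TPM, whose median was 0.143. Without replicate 4 the BCV of Tgtp1 was 0.159. These estimates are shrunk towards the trend over all genes, so large ones are understated.

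The Tgtp1 excess of replicate 4 can be set against its near-identical copy. Tgtp1 took 7.41%, 8.20% and 7.43% of the TPM of the pair in replicates 1 to 3 and 15.1% in replicate 4. The second quantification gave 7.83%, 8.25%, 7.83% and 15.98%. By expected counts the shares were 1980 of 26460, 1747 of 21243, 2492 of 33411 and 7238 of 47529, with exact (Clopper-Pearson) 95% intervals of 7.17% to 7.81%, 7.86% to 8.60%, 7.18% to 7.75% and 14.9% to 15.5%. These intervals cover counting error only and not the assignment of reads. Replicates 1 to 3 lay close together in both quantifications, and replicate 4 lay well above their share.

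How reads were divided between the copies limits that value. Of the 100-base stretches in the annotated transcripts, 73.15% of those of Tgtp1 and 76.79% of those of Tgtp2 also occur in another gene. Their last exons, of 2568 bases, differ at 5 bases, with an identical run of 1040. The deposited posterior SD of the count, the quantification's own uncertainty, was 42.8, 39.6, 47.3 and 74.5 counts for Tgtp1, or 1.03% to 2.27% of its count. For the other members outside the pair it was at most 4.49 counts. The sum of Tgtp1 and Tgtp2, which does not depend on the split between them, was 203, 119, 168 and 318 TPM.

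**Figure D3:**
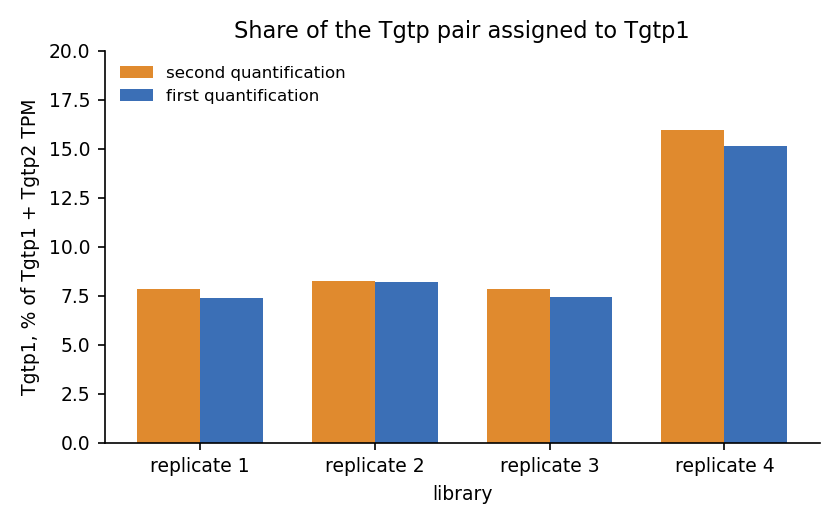
Percent of the summed TPM of Tgtp1 and Tgtp2 assigned to Tgtp1 in each library, by the second quantification (orange) and the first (blue). Replicates 1 to 3 stand at 7.41% to 8.25% and replicate 4 at 15.98% and 15.1%.

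The remaining members could be read with little sharing. Irgm1 and Iigp1 had no 100-base stretch in another gene, Ifi47 shared 0.56% with Olfr56, and Igtp shared 5.16% and Irgm2 3.01% with each other. Irgm2 and Igtp overlap on the plus strand, because the transcript Irgm2-201 starts inside the first exon of Igtp and ends that exon at the same base, 58199779. Tgtp1, Tgtp2 and Ifi47 lie within the span of Olfr56 (13.9 ± 5.46 TPM), which runs on the plus strand, opposite to both Tgtp genes. Whether counting used the strand is not given in the sources used here, so reads from opposite strands may not have been told apart.

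Most of each gene's TPM was on 1 transcript. Irgm1-202 held 73.9% ± 2.25 of Irgm1, and Irgm1-201 held 26.0% ± 2.29. The leading share was 85.8% ± 1.45 in Irgm2-202, 89.2% ± 0.921 in Igtp-201, 88.0% ± 2.47 in Iigp1-202, 92.0% ± 2.65 in Ifi47-201, 97.8% ± 1.201 in Tgtp1-201 and 97.9% ± 0.721 in Tgtp2-201. Irgm2-201, the transcript that starts in Igtp, held 3.28% ± 1.38 of Irgm2. The second quantification gave the leading transcripts less in 6 of 7 genes. Its shares were 73.8% ± 1.87 for Tgtp1-201, 79.1% ± 3.27 for Tgtp2-201 and 72.4% ± 3.85 for Ifi47-201, but 91.9% ± 0.830 for Igtp-201.

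The 2 Ifi47 transcripts with the most RNA start far apart. Ifi47-201 starts at 49087039 and Ifi47-202 at 49076587, which is also the RefSeq start whose promoter window held no match. Ifi47-202 had 30.3%, 19.1%, 19.5% and 23.7% of the gene's TPM in replicates 1 to 4 by the second quantification, and 10.5%, 4.58%, 5.58% and 8.25% by the first. Both gave Ifi47-201 the larger share in all 4 libraries. For Tgtp2 the difference went to Tgtp2-202, a short transcript of 370 bases without a coding label, with 20.9% ± 3.27 by the second quantification and 2.07% ± 0.721 by the first.

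**Figure D4:**
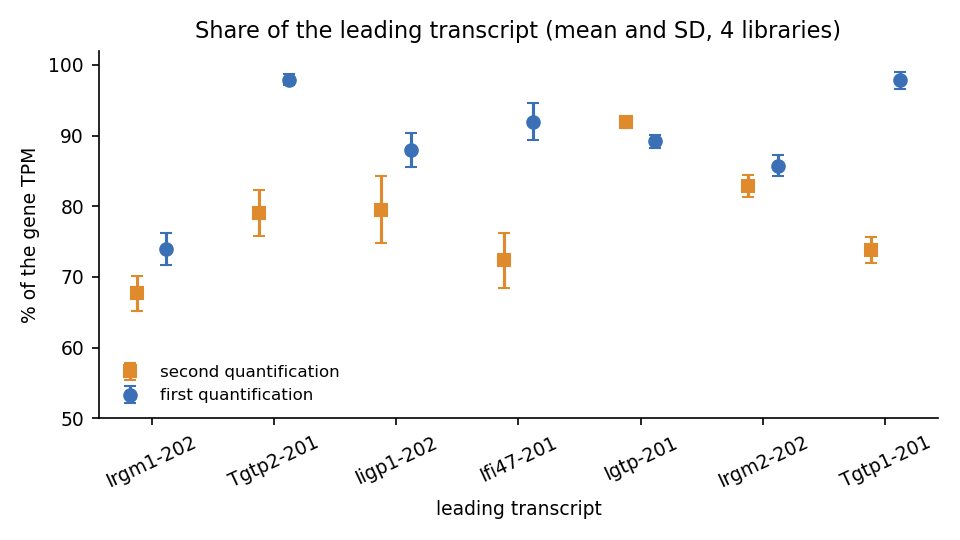
Percent of the gene's TPM on its leading transcript (mean and SD of 4 libraries; axis from 50%), by the second quantification (orange squares) and the first (blue circles). Igtp-201 is the transcript with the higher share in the second quantification, at 91.9% and 89.2%, and Ifi47-201, Tgtp1-201 and Tgtp2-201 differ most.

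At the gene level the second quantification gave lower TPM than the first for all 7 members, as it did for most genes. Irgm1 had 83.0, 60.9, 53.5 and 78.1 TPM in replicates 1 to 4 by the second quantification, and 205, 151, 192 and 279 by the first. As deposited, the second quantification put Irgm1, Irgm2, Ifi47 and Tgtp2 highest in replicate 1, and only Igtp was lowest in replicate 2. On the log2(TPM + 0.1) scale the members differed by -1.58 (Irgm2) to -1.19 (Tgtp1), and the median of all 10329 genes compared was -1.40. A difference of more than 1 log2 unit was called lower for 4.28% of genes and higher for 2.22% (limma treat, adjusted p below 0.05). It was called for 0 of 7 members, with adjusted p from 0.101 to 0.265, and 5 of 7 had an unadjusted p under 0.05. With a pseudocount of 1 it was called for 4 members, and among genes of at least 10 TPM or with posterior mean TPM for 5. In these settings 1321 of 10329, 3113 of 4416 and 8166 of 12701 genes were called lower. A further 97, 31 and 174 were called higher. At 10 TPM and with posterior mean TPM, most genes tested were thus called as well. With both tables scaled to protein-coding genes the median of all genes was 0.05 and the members lay between -0.11 (Irgm2) and 0.26 (Tgtp1), with 0 of 7 called, where 0.956% of genes were called lower and 3.31% higher (none of the 7 had an unadjusted p under 0.05).

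Most of the remaining IRG family genes were also present. Of 9 further members of the family, 8 were called above 1 TPM and 1 could not be tested, with a median of 38.8 TPM. The call was made for 58.2% of all genes tested. The highest were Gm5431 at 65.0 ± 17.1 TPM, Gm12250 (Irgb10, which disrupts bacterial membranes in the cytosol; annotated as a processed pseudogene) at 55.2 ± 15.7 TPM and 9930111J21Rik2 at 54.1 ± 15.7 TPM. Several lie beside the members: Gm5431 next to Irgm1, Gm12250 next to Igtp, and 9930111J21Rik2 next to Tgtp2. Gm12185, which overlaps Tgtp1 and shares a first-exon end with it at 48992004, had 2.38 ± 1.26 TPM. Irgc1, a testis gene of the family, had 0 counts in each library, and a count of 0 allows a level of up to 3 counts, here 0.0623 to 0.0982 CPM. By the second quantification 6 of the 9 were called, without Gm12185 and Irgq, and by its values scaled to protein-coding genes 8 were. Of all 16262 genes tested, 7336 and 11054 were called above 1 TPM by those values.

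Most GBP genes were present too. Of 11, 10 were called above 1 TPM and 0 below, with a median of 41.8 TPM. Over all genes tested, 58.2% were called above and 35.1% below. Gbp2, which coats pathogen vacuoles, had 279.5 ± 108 TPM, Gbp6 had 106.6 ± 36.5 TPM and Gbp3 had 90.9 ± 35.5 TPM. Gbp2b had 0.90, 0.54, 0.92 and 1.67 TPM and no call, though it was called above 1 TPM after scaling to protein-coding genes and below it by the second quantification. By the second quantification 8 of the 11 were called above 1 TPM, without Gbp10 and Gbp11, which were named after their values were seen. By its values scaled to protein-coding genes 11 were. Over all 16262 genes tested, those settings called 7336 and 11054. The members' summed TPM was 1.26, 1.15, 0.955 and 1.05 times that of the GBP genes in replicates 1 to 4, and 1.27, 1.16, 0.961 and 1.05 times by the second quantification.

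The genes of the signalling route to IRG expression were all measured. All 12 interferon receptor, Janus kinase, STAT and IRF genes were called above 1 TPM, with a median of 37.1 TPM. Stat2, a transcription factor downstream of type I interferon, had 145 ± 52.1 TPM, and Ifnar2, a chain of the type I interferon receptor, had 63.0 ± 10.9 TPM. All 13 ATG8 conjugation and vacuole-targeting genes were called above 1 TPM, with a median of 17.6 TPM. The same call was made for 58.2% of all genes tested and 71.2% of the protein-coding ones. By themselves these counts set the lists apart little. Gabarap, an ATG8 protein, had 257.8 ± 31.2 TPM, Sqstm1, an adaptor that binds ubiquitin, had 248.6 ± 78.9 TPM, and Map1lc3b, the LC3B protein, had 27.7 ± 4.17 TPM.

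Apart from Ifnb1, the interferon ligands were at or near 0. Of 8 ligand genes, 5 (Ifna1, Ifna2, Ifna4, Ifna5 and Ifne) had 0 counts in every library. Ifng had 6, 0, 1 and 0 counts in replicates 1 to 4 and Ifnk 1, 0, 0 and 1. Ifnb1, the type I interferon that macrophages make after Toll-like receptor 4 signalling, had 1.09, 1.39, 0.94 and 3.06 TPM (1.62 ± 0.978) from 29, 52, 39 and 97 counts. It had no call against 1 TPM (limma, adjusted p 0.0671, unadjusted p 0.0392), and it was the 1 ligand gene with enough counts to test. It was called above 1 TPM without replicate 1 (mean 1.80 TPM), without replicate 3 (mean 1.85 TPM) and under several alternatives given in the closing section.

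**Figure D5:**
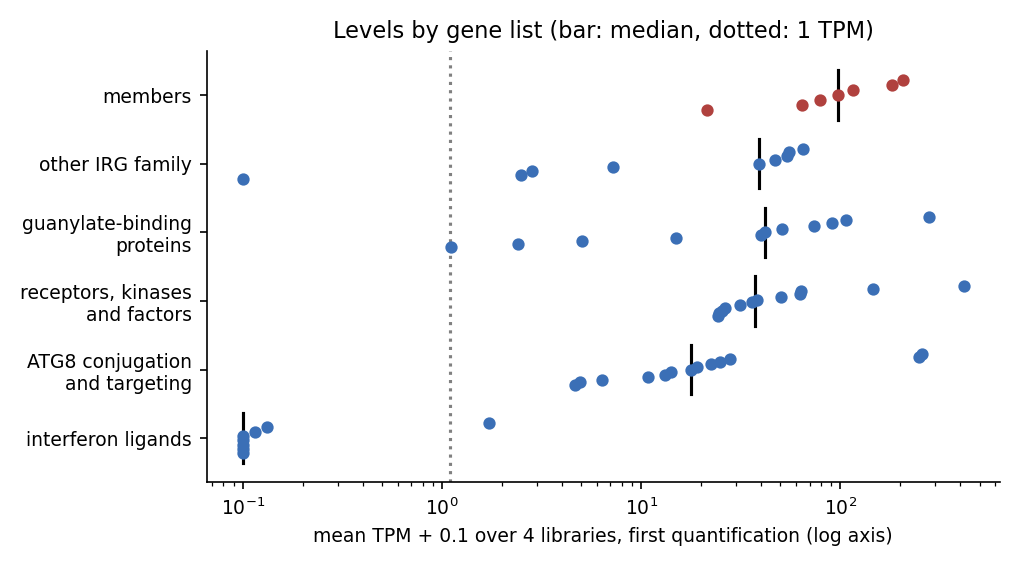
Mean TPM + 0.1 over 4 libraries (first quantification, log axis) of each gene of the 6 lists, with the list median as a bar and 1 TPM as a dotted line. The members' median is 97.1 TPM, the other lists' medians lie between 17.6 and 41.8 TPM except the interferon ligands, of which 5 of 8 are at 0.

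The labelled cell type was met by its markers: all 8 macrophage markers were called above 1 TPM, with means from 37.6 to 3430 TPM. Of the protein-coding genes tested, 71.2% were called above 1 TPM. The lists for T, NK, B and dendritic cells, neutrophils, fibroblasts and endothelium summed to at most 18.1, 0.09, 0.08, 0.56, 6.49, 0.18 and 2.05 TPM in any library. Cd4 (15.0 ± 4.40 TPM) made up nearly all of the T cell sum, with Cd3e at 0 to 0.15 TPM, and S100a8 (4.54 ± 1.27 TPM) most of the neutrophil sum.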

How the data were processed

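Ribosomal-RNA-depleted total RNA of the cytosolic fraction of mouse macrophages was measured in 4 libraries of 1 group. Per the deposited notes, the authors made a first quantification from a transcriptome alignment and a second directly from the reads, on mm10 with annotation M21; the sources used here name no tool and no strand setting. Per the file headers, the deposited values are expected or estimated counts, TPM, and posterior SDs and TPM bounds, entered here as score columns. Rows outside the annotation (numbered features, spike-ins, phiX) held 0.0238% to 0.383% of the counts and were left out.

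Genes with at least 10 summed counts were tested with limma 3.58.1 on log2(TPM + 0.1), intercept only, against 1 TPM; the quantifications were compared with limma treat (genes of at least 1 TPM, log2 difference of 1). The BCV came from edgeR 4.0.16 on expected counts rounded to whole numbers, with DESeq2 1.42.0 as an alternative. Genes were called at a Benjamini-Hochberg adjusted p under 0.05. Python 3.11.15 (pandas 2.3.3, scipy 1.17.1, Biopython 1.88) and R 4.3.3 were used, and the fits were tested on simulated data. No pair of libraries agreed within sampling noise (chi-square per degree of freedom 88.1 to 140.1). Total expected counts were 30660511, 36681241, 48223718 and 42785115 in replicates 1 to 4.

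The members and gene lists were chosen with earlier results of these data known. Named are the 7 members, the 3 highest genes of each other list and its measured genes not called above 1 TPM, overlapping or neighbouring genes, and the 5 genes of most similar deviations; Gbp2b, Ifnb1 and the ligands fall under this rule, and Irgq, Cd3e, Cd4 and S100a8 were named after their values were seen. A gene that this rule selects is not reported here. Alternatives were the second quantification, other scalings, pseudocounts and filters, posterior mean TPM and leaving out each library.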

Additional observations from a re-analysis of the deposited data

Results flagged for a closer look

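Of 39 values tested for a library far from the other 3 (Dixon's ratio of the gap to the range, which chance passes in about 1 of 20 groups), 4 passed, and 3 of these concern Tgtp1. The TPM of Tgtp1 in replicate 4 gave a ratio of 0.862. The share of Tgtp1 in the TPM of Tgtp1 and Tgtp2 gave 0.897 in the first quantification and 0.948 in the second, again from replicate 4. These 3 values rest on the same reads and are not separate observations. Others of the 39 values also overlap, so the rate of 1 in 20 does not apply to their number. On the log2 CPM scale the ratio for Tgtp1 was 0.748, which does not pass. The fourth was the TPM of Gabarap, with 304 TPM in replicate 4 and 236 to 247 TPM in replicates 1 to 3, at a ratio of 0.842.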

How the results depend on the processing

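All 7 members were called above 1 TPM under each of the 13 alternatives run for the level. The summed TPM of the members was 273.6 by the second quantification, 2428 after scaling to protein-coding genes and 2437 with both, against 765 as reported; leaving out a library gave 650.7 to 851.5. The number of members called between the quantifications was 0 as reported and 4 with a pseudocount of 1, where 1321 of 10329 genes were called lower. It was 5 among genes of at least 10 TPM, where 3113 of 4416 genes were called lower. With posterior mean TPM it was 5, and 8166 of 12701 genes were called lower. Leaving out a library gave 0 to 0. Irgm1 minus Tgtp2 was -0.065 by the second quantification, against 0.24. The median BCV of the members was 0.194, and 0.2165 with DESeq2, 0.2175 with the second quantification and 0.169 to 0.218 without 1 library. The leading transcripts' median share was 89.3%, and 78.6% by the second quantification. The count of interferon ligands above 1 TPM was 0, and it was 1 (Ifnb1) after scaling to protein-coding genes, with posterior mean TPM, with at least 40 summed counts and with the second quantification scaled to protein-coding genes (1 in each), and 0 to 1 without 1 library. The scaled second quantification, the share and pair alternatives and the BCV median without Tgtp1 (0.188) were added after seeing the data. The causes of these changes were not tested. No paired analysis was possible because there is 1 group. Depth limits the ligands, where 3 counts are 0.0623 to 0.0982 CPM.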
